A study of Mus musculus with 75 samples.

Results

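Neurexins, neuroligins and leucine-rich repeat transmembrane (LRRTM) proteins join the 2 sides of a synapse, and 9 of their genes were followed here in nuclear RNA of the mouse nucleus accumbens: Nrxn2, Nrxn3, Nlgn1, Nlgn2, Nlgn3, Lrrtm1, Lrrtm2, Lrrtm3 and Lrrtm4. They were chosen by symbol and not by a cut on a measured value, though with earlier results of these data known. All 9 were found among the 55401 gene identifiers of the count table. Nuclei were sorted by fluorescence from male mice with the LSL-eGFP::L10a reporter, a green-fluorescent ribosomal protein L10a switched on by Cre, together with D1-Cre or D2-Cre. All mice therefore carried the reporter, and the sorted cells are those in which the D1 or the D2 receptor driver line had acted. Mice were injected with saline or cocaine (20 mg/kg, intraperitoneal) daily for 10 days, rested in the home cage for 30 days and received a challenge of saline or cocaine 1 h before tissue was taken. Groups are named by line, then by a letter for the repeated drug and a letter for the challenge (S, saline; C, cocaine), so that D1_SC mice met cocaine only at the challenge. The D1 line gave 9 D1_SC, 8 D1_CS, 10 D1_CC and 10 D1_SS libraries, and the D2 line gave 9 D2_SC, 10 D2_CS, 10 D2_CC and 9 D2_SS libraries, 75 in all. The labels do not say whether libraries came from single or pooled animals, so p-values measure the spread between these libraries.

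Neurexins sit mainly in the presynaptic membrane and bind, across the cleft, neuroligins and LRRTMs of the postsynaptic membrane. The neurexin genes make long and short protein forms from separate promoters and are heavily alternatively spliced, which steers the choice of partner. In the striatum these proteins stand at the glutamatergic inputs and at the inhibitory contacts of medium spiny neurons, the cells that express the D1 or the D2 dopamine receptor. A change in summed nuclear RNA of a sorted sample can come from fewer cells of a type or from less RNA per cell, and these cannot be told apart.

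The 9 genes differ widely in length, which matters because the reads come from nuclei and were counted over introns too. In the GENCODE M21 annotation of mm10, Nrxn3 (ENSMUSG00000066392.12) spans 1612 kb of chromosome 12 (88722876 to 90334935, plus strand), and exons make up 0.782% of it. Nlgn1 (ENSMUSG00000063887.13) spans 906 kb of chromosome 3 (25426215 to 26332460, minus strand), 1.48% of it exonic. Lrrtm4 (ENSMUSG00000052581.13) spans 791 kb of chromosome 6 (80018877 to 80810143, plus strand), 0.777% of it exonic. These 3 are among the long neuronal genes in which nearly all bases are intronic. Lrrtm3 (ENSMUSG00000042846.8) spans 162 kb of chromosome 10 (63928472 to 64090277, minus strand), and Nrxn2 (ENSMUSG00000033768.17) spans 125 kb of chromosome 19 (6418731 to 6544169, plus strand). The short members are Nlgn3 (ENSMUSG00000031302.16; chromosome X, 101299168 to 101325963, plus strand) with 26.8 kb and Lrrtm1 (ENSMUSG00000060780.2; chromosome 6, 77242689 to 77257791, plus strand) with 15.1 kb. Nlgn2 (ENSMUSG00000051790.15; chromosome 11, 69823122 to 69837784, minus strand) has 14.7 kb, 39.5% of it exonic, and Lrrtm2 (ENSMUSG00000071862.3) has 6.02 kb, all of it annotated as exon.

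RefSeq promoter windows in build GRCm38.p6 were on hand for 6 of the 9 genes. The 250 bases before the start are shown for the 4 long genes that fell together in D1_CC nuclei against D1_SC nuclei and for Nlgn2, which did not, with each CG dinucleotide in capitals.
Nrxn3, chr12:89812233-89812482, plus strand: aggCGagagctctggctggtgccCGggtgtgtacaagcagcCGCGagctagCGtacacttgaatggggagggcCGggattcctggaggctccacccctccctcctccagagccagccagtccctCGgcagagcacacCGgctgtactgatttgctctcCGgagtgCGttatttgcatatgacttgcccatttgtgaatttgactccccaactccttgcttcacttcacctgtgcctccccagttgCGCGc
Nlgn1, chr3:26331910-26332159, minus strand: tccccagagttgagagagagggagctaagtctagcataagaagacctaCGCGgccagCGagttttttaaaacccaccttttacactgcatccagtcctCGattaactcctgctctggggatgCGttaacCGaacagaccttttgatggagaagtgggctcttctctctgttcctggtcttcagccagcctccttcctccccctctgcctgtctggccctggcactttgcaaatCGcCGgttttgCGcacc
Lrrtm3, chr10:64090256-64090505, minus strand: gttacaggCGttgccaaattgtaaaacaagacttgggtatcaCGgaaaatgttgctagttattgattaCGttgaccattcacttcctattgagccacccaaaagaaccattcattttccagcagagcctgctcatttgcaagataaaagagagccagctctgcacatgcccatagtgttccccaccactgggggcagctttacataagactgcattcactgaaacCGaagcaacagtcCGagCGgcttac
Lrrtm4, chr6:80018627-80018876, plus strand: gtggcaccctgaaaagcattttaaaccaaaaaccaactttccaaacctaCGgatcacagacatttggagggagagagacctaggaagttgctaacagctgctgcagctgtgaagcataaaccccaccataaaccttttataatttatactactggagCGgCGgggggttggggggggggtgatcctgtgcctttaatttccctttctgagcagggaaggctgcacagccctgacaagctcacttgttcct
Nlgn2, chr11:69837785-69838034, minus strand: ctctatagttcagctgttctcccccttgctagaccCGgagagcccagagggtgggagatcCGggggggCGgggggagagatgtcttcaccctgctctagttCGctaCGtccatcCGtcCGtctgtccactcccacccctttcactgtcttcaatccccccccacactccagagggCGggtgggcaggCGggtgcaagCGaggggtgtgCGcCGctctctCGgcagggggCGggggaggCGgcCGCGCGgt
The Nrxn3 window lies 1089607 bases inside the annotated gene, at the RefSeq start with the most CG dinucleotides of the 3 listed for the gene. The Nlgn2 window held 18 CG dinucleotides and 67.6% G or C, the Nrxn3 window 12 and 60.0%, and the Nlgn1 window 9 and 53.6%. The Lrrtm3 window held 6 CG dinucleotides and 46.0% G or C, and the Lrrtm4 window held 3 and 49.2%. Windows at other starts, not shown, differed from these. The other Nrxn3 windows held 2 and 5 CG, at 45.6% and 46.8% G or C. A further Nlgn1 window held 5 and 43.6%, and a further Lrrtm4 window 8 and 54.0%. The window of Lrrtm1, which did not pass as lower in D1_CC against D1_SC either, held 5 and 42.0%. Over all 32851 RefSeq promoter windows of the same length, 92.1% held a CG, with a median of 6 CG and of 52.4% G or C. On both strands, none of the 5 windows held TGACG, the core of the cAMP response element, which 17.8% of all windows held, and so none held the full TGACGTCA (1.55% of all windows). None held the EGR motif GCGNGGGCG (4.7% of all windows) or the AP-1 motif TGANTCA (6.75% of all windows). Another RefSeq start of Nrxn3, whose window at chr12:88953140-88953389 is not shown, held 1 AP-1 match. These are counts of letters in windows of 250 bases and not measurements of binding.

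Several properties of the libraries bear on every value. Total counts ranged from 19825 to 34870414 with a median of 14893119, and 17 of the 75 libraries failed a quality rule on depth, genes detected, the Drd1 to Drd2 ratio and correlation with their line, none of them in D1_SS or D2_SS. Drd1 and Drd2 encode the receptors that name the lines, and 16 of the 37 D1 libraries held more Drd2 than Drd1 counts, against their label. In D1_SC these were replicates 1, 3, 4, 5, 6 and 9, and in D1_SS replicates 8 and 9. In D1_CS they were replicates 4, 6, 7 and 8, and in D1_CC replicates 4, 7, 9 and 10. They were thus spread unevenly over the D1 groups, with most of the D1_SC libraries among them. Olfactory and vomeronasal receptor genes, which striatal neurons do not use, served as a gauge of reads spread over the genome: at the density of reads in these 1464 genes, all annotated spans together would hold 4.02% to 70.8% of a library's counts in the 71 libraries with over 1000000 counts. Over all 75 libraries, including those with fewer counts, this background share had a median of 17.8% in D1_SC, 63.4% in D1_CS, 55.2% in D1_CC and 45.1% in D1_SS. Its median was 45.5%, 35.5%, 37.9% and 45.1% in D2_SC, D2_CS, D2_CC and D2_SS. The D1_SC libraries thus had the lowest background share, and its part in the changes of the members was not tested apart from the alternatives given beside them.

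Levels between genes are compared per kilobase of gene span, as the count density of a gene divided by that of the olfactory and vomeronasal genes in the same library. Over the 71 libraries, Nlgn2, the neuroligin of inhibitory synapses, had the highest median, 7.83 times background (range 1.52 to 342). Nrxn3 followed at 5.46 (1.88 to 135), ahead of Nlgn3, a neuroligin of both excitatory and inhibitory contacts, at 4.97 (0.981 to 214) and Nlgn1, the neuroligin of excitatory synapses, at 4.88 (1.5 to 97.0). Lrrtm2, a postsynaptic neurexin ligand of excitatory synapses, stood at 4.15 (0.437 to 175). Lrrtm4, which binds neurexins and heparan sulphate proteoglycans, stood at 3.59 (1.41 to 81.3), Nrxn2 at 3.26 (1.36 to 51.1), Lrrtm3 at 3.0 (1.0 to 63.1) and Lrrtm1, another postsynaptic organiser of excitatory synapses, at 2.79 (1.03 to 77.8). All 9 medians were above background. The counts of Lrrtm1, Lrrtm2 and Lrrtm3 also hold reads of the genes around them, as described below. For Lrrtm1, the median density was 0.873 times that of the rest of the gene around it. The ranges over libraries are so wide that those of neighbours in this order overlapped throughout. The exonic share of the span also differs between the genes, from 0.777% in Lrrtm4 to 39.5% in Nlgn2 and 100% in Lrrtm2. Its part in this order was not tested.

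**Figure D1:**
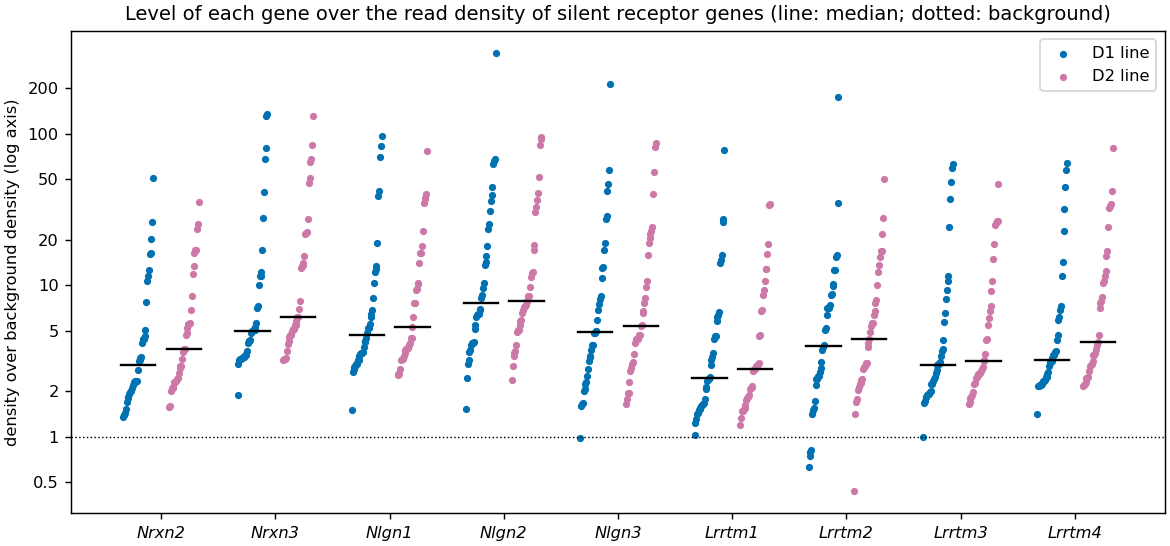
Count density of each of the 9 genes over that of olfactory and vomeronasal receptor genes (log axis) in D1 and D2 libraries with over 1000000 counts, 1 point per library. Medians over both lines lie between 2.79 for Lrrtm1 and 7.83 for Nlgn2, and the points of all genes overlap.

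By group, the same density over background was highest in D1_SC for all 9 genes by median. For Nrxn3 the medians were 22.4 in D1_SC, 3.30 in D1_CS, 4.0 in D1_CC and 5.07 in D1_SS, and 6.22, 11.7, 13.4 and 4.97 in D2_SC, D2_CS, D2_CC and D2_SS. For Nlgn2 they were 30.8 in D1_SC, 4.72 in D1_CS, 8.44 in D1_CC and 6.73 in D1_SS. The 4 D2 groups lay closer together for Nlgn2, with medians of 8.50, 9.58, 7.92 and 7.13 in D2_SC, D2_CS, D2_CC and D2_SS. Because the background is the divisor, these medians also carry the differences in background share given above.

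**Figure D2:**
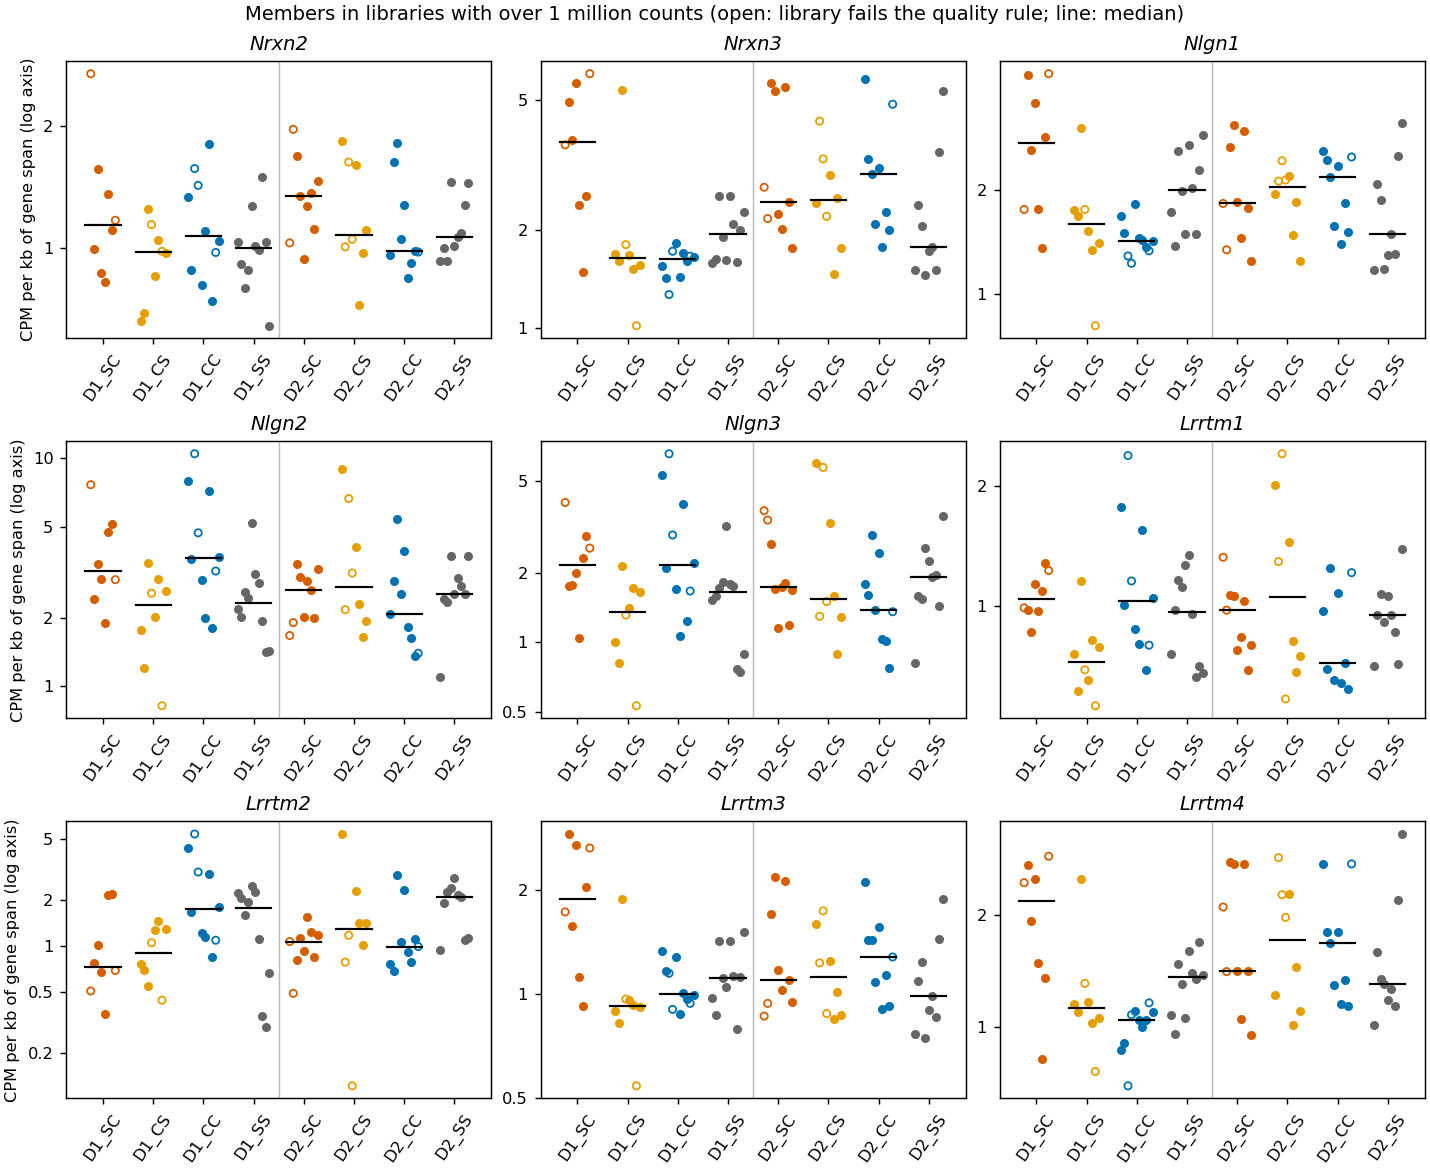
Counts per 1000000 of the library total (CPM) per kilobase of gene span for each of the 9 genes in libraries with over 1000000 counts, by line and treatment. Open points mark libraries that failed the quality rule and bars mark group medians. Nrxn3, Nlgn1, Lrrtm3 and Lrrtm4 have their highest median in D1_SC, and Nlgn2, Nlgn3 and Lrrtm2 are higher in D1_CC than in D1_CS.

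The 3 LRRTM genes Lrrtm1, Lrrtm2 and Lrrtm3 lie wholly inside the alpha-catenin genes Ctnna2, Ctnna1 and Ctnna3, on the opposite strand; alpha-catenins link cadherins to actin. Lrrtm2 and Ctnna1 are on chromosome 18. In the whole table there were 5769 pairs of a gene lying inside another on the opposite strand and 5457 on the same strand, and in none of them did the inner gene have more counts than the outer in any library. Reads of the outer gene were thus counted for the inner one whatever the strand, and an LRRTM count holds reads from the catenin intron around it. The read density of Lrrtm1 was a median of 0.873 times that of the rest of Ctnna2 (range 0.567 to 4.57 over 71 libraries), so that most libraries show no excess over the surrounding gene. For Lrrtm2 the ratio to the rest of Ctnna1 was 2.35 (0.539 to 16.9), and for Lrrtm3 the ratio to the rest of Ctnna3 was 2.26 (0.812 to 23.9). Nlgn3 shares 82.8% of its span with Gm21986, a transcript annotated on the same strand, and the 2 cannot be told apart.

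**Figure D3:**
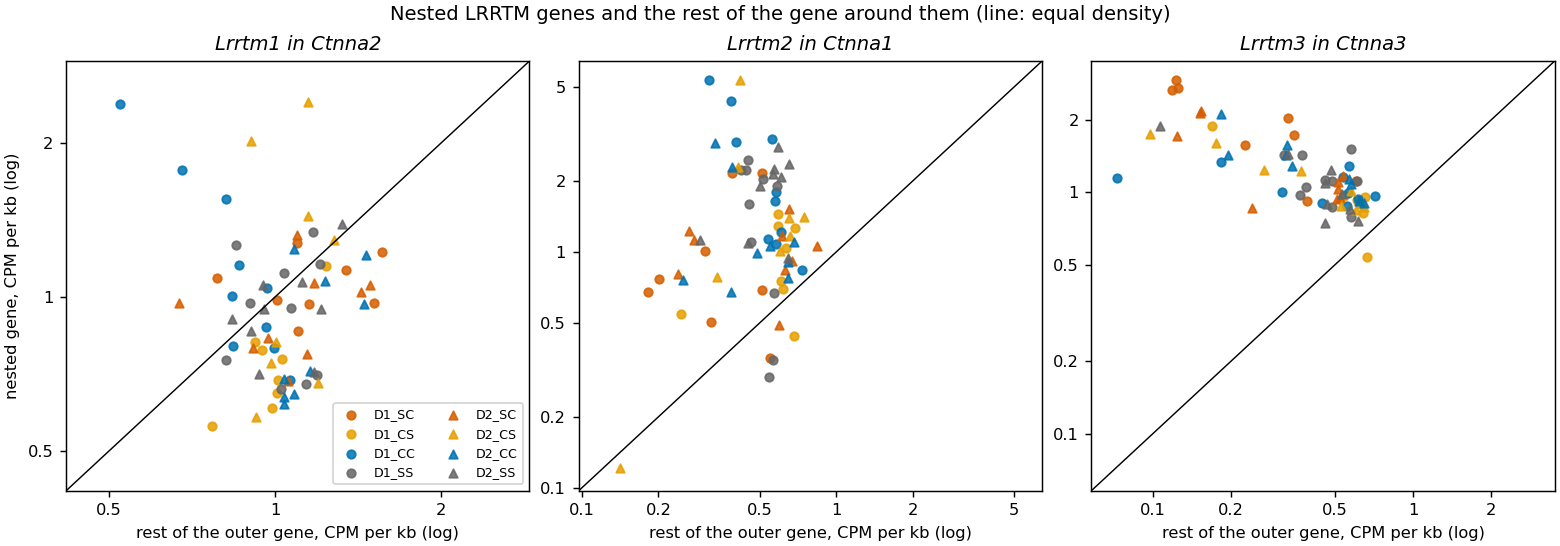
Count density of Lrrtm1, Lrrtm2 and Lrrtm3 (CPM per kilobase) against that of the rest of the alpha-catenin gene around each, 1 point per library; the line marks equal density. Lrrtm1 follows the line, with a median ratio of 0.873, whereas Lrrtm2 and Lrrtm3 lie mostly above it, with median ratios of 2.35 and 2.26.

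A first cocaine challenge after repeated saline addresses the acute response, and in D1 nuclei 7 of the 9 genes were higher in D1_SC than in D1_SS while none was lower. Over all 37721 genes tested in the D1 line, 11.3% passed in this comparison, 9.7% as higher and 1.64% as lower. Changes are log2 changes of an edgeR quasi-likelihood fit, with p-values adjusted over all genes tested (Benjamini-Hochberg), and passing means an adjusted p under 0.05. The median change of the 9 genes was 1.18, against -0.07 for all genes.

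Of the neurexins, Nrxn3 showed the largest change. It stood at 2385, 6059 and 9671 CPM (lowest, median and highest) in D1_SC libraries, against 2544, 3133 and 4089 CPM in D1_SS libraries. Of the 9 D1_SC libraries, 7 lay above all D1_SS libraries and 1 lay below all of them. The change was 1.72 ± 0.35 (SE; adjusted p = 0.00322 by edgeR), and it passed in all 37 fits that left out 1 library, with values from 1.31 to 1.86. The 4 highest Nrxn3 libraries, D1_SC replicates 9, 4, 2 and 5, had background shares of 5.81%, 5.61%, 8.0% and 14.3%. Nrxn2 stood at 103, 147 and 338 CPM in D1_SC and at 80.5, 125 and 188 CPM in D1_SS. The groups overlapped for Nrxn2, with 6 of 9 D1_SC libraries above the D1_SS median and 3 above the D1_SS maximum. Its change was 1.04 ± 0.28 (adjusted p = 0.0123 by edgeR). The call was lost without D1_SC replicate 2, 4, 5 or 9, D1_CS replicate 5 or D1_SS replicate 3, where the change was 0.72 to 0.82.

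Among the neuroligins, Nlgn1 stood at 1236, 2354 and 3904 CPM in D1_SC and at 1245, 1814 and 2609 CPM in D1_SS. In Nlgn1 3 D1_SC libraries lay above and 1 below all D1_SS libraries, and the change was 1.14 ± 0.31 (adjusted p = 0.0152 by edgeR). Nlgn1 did not pass without D1_SC replicate 2, 4, 5 or 9, D1_CS replicate 5 or D1_SS replicate 3, where its change was 0.70 to 0.95. Nlgn2 stood at 27.8, 50.6 and 112 CPM in D1_SC and at 20.8, 33.9 and 76.5 CPM in D1_SS. The Nlgn2 groups overlapped almost wholly in range, although 8 of 9 D1_SC libraries lay above the D1_SS median. The change of Nlgn2 was 1.18 ± 0.40 (adjusted p = 0.0478 by edgeR), and the call held in 14 of the 37 fits that left out 1 library. Nlgn3, singled out after its values were seen, had 27.6, 53.4 and 108 CPM in D1_SC and 19.9, 44.2 and 85.7 CPM in D1_SS. Its change of 1.02 ± 0.42 did not pass (adjusted p = 0.0914 by edgeR).

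Of the LRRTM genes, Lrrtm3, whose product binds neurexins and organises excitatory contacts, stood at 149, 280 and 472 CPM in D1_SC and at 128, 181 and 245 CPM in D1_SS. For Lrrtm3, 6 of 9 D1_SC libraries lay above all D1_SS libraries, and the change was 1.45 ± 0.32 (adjusted p = 0.00472 by edgeR). Lrrtm4 stood at 650, 1530 and 2274 CPM in D1_SC and at 762, 1081 and 1340 CPM in D1_SS. For Lrrtm4 likewise 6 D1_SC libraries lay above all D1_SS libraries and 1 lay below, and the change was 1.29 ± 0.29 (adjusted p = 0.00501 by edgeR). Lrrtm3 did not pass without D1_SC replicate 2 or 4, at 1.03 and 1.07, and Lrrtm4 did not pass without D1_SC replicate 2, 4 or 9, at 0.88, 0.93 and 0.93.

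Lrrtm1 stood at 13, 16.5 and 107 CPM in D1_SC and at 9.98, 14.5 and 20.3 CPM in D1_SS. A single library, D1_SC replicate 5, held the 107 CPM, and all others overlapped with D1_SS. The change of Lrrtm1 was 1.41 ± 0.42 (adjusted p = 0.0246 by edgeR). Without that library, whose total was 651445 counts, the change of Lrrtm1 was 0.51 and did not pass; nor did it pass, at 1.13 to 1.19, without D1_SC replicate 2, 4 or 9, D1_CS replicate 3 or 5, or D1_SS replicate 3. With the expected reads of Ctnna2 taken off, it was 3.11 ± 1.59 and did not pass (adjusted p = 0.169 by edgeR). Lrrtm2, singled out after its values were seen, had its lower median in D1_SC: it stood at 1.54, 4.14 and 13.1 CPM in D1_SC and at 1.77, 10.6 and 14.9 CPM in D1_SS. Only 2 of 9 D1_SC libraries lay above the D1_SS median. In the fit its change was -0.11 ± 0.45 (adjusted p = 0.891 by edgeR), with a 95% interval of -1.02 to 0.80.

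These sizes rest in part on scaling. The TMM scaling factors that edgeR applies had a median of 0.799 in D1_SC and 1.12 in D1_SS. Scaled by total counts alone, the median change of all genes was -0.53 and Nrxn3, at 0.99 (adjusted p = 0.0313 by edgeR), was the only one of the 9 genes that passed, beside 0.496% of all genes higher. With the background share as a covariate, none of the 9 passed, beside 2 of all 37721 genes higher and 0 lower, and Nrxn3 had a change of 0.72. Without the failing libraries of the D1 line, 4 passed, beside 7.11% of all genes higher: Nrxn3 at 1.53, Nlgn1 at 1.11, Lrrtm3 at 1.43 and Lrrtm4 at 1.14. Without the D1 libraries that held more Drd2 than Drd1, none of the 9 and none of all genes passed, and the changes of Nrxn3 and Lrrtm3 were 1.25 and 1.38. That fit kept only replicates 2, 7 and 8 of D1_SC, and all D1_SS libraries but replicates 8 and 9. Oligodendrocyte markers moved with this comparison: 5 of 6 were higher, and their summed level was 99.4, 299 and 921 CPM (lowest, median and highest) in D1_SC against 147, 193 and 277 CPM in D1_SS, with none of the 6 at 0 in every library. Medium spiny neuron markers moved as well, with 4 of 6 higher, and stood at 1543, 2797 and 4950 CPM in D1_SC against 1503, 2191 and 2765 CPM in D1_SS. Cortical glutamatergic neuron markers, 2 of 5 higher, summed to 19.3, 107 and 263 CPM in D1_SC against 61.0, 95.8 and 128 CPM in D1_SS. Of the other lists, 1 marker each of D2 neurons, astrocytes and microglia was higher. None of D1 neurons, oligodendrocyte precursors, endothelial cells or interneurons passed. The part of these lists in the changes of the 9 genes was not tested.

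**Figure D4:**
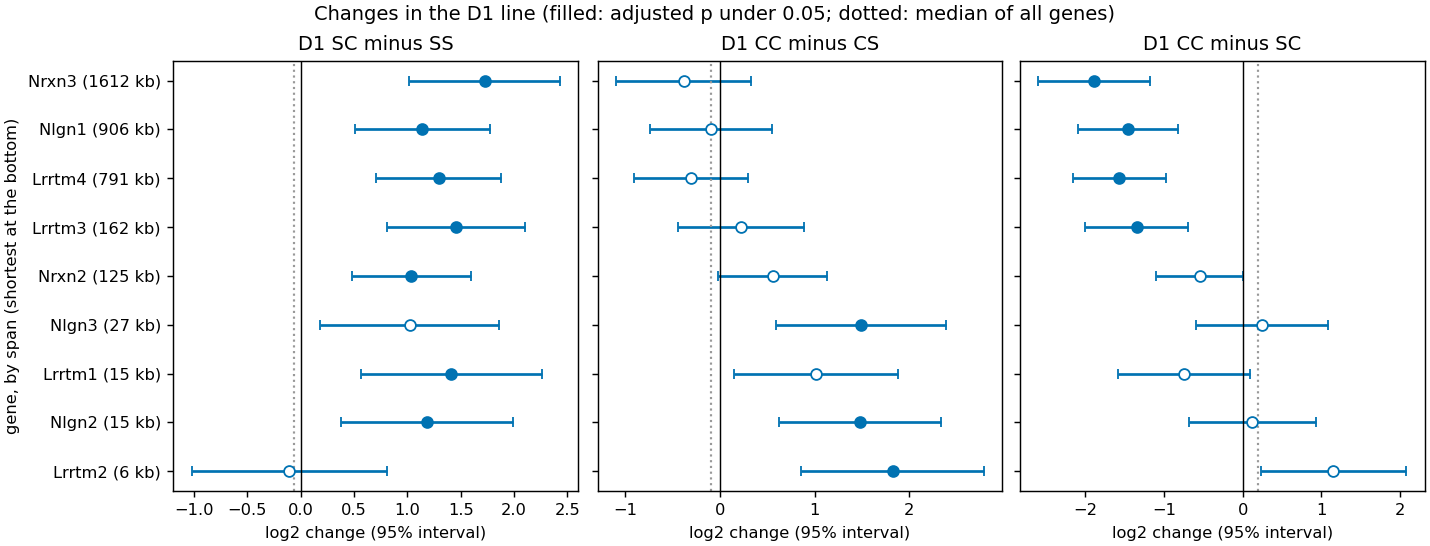
Log2 changes of the 9 genes in D1 nuclei with 95% intervals, ordered by gene span, for D1_SC minus D1_SS, D1_CC minus D1_CS and D1_CC minus D1_SC; filled points passed at an adjusted p under 0.05 and the dotted line is the median of all genes. In the first comparison 7 genes lie above 0 and pass, in the second the short genes Nlgn2, Nlgn3 and Lrrtm2 pass as higher, and in the third Nrxn3, Nlgn1, Lrrtm3 and Lrrtm4 pass as lower.

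The same challenge after repeated cocaine, D1_CC against D1_CS, gave 3 higher genes of 9: Nlgn2, Nlgn3 and Lrrtm2, and none was lower. Nlgn2 thus passed both here and in D1_SC against D1_SS, and its interaction, 0.30 ± 0.57 (adjusted p = 0.809 by edgeR), does not show that the responses differ. Over all genes 8.31% passed here, 8.28% as higher and 0.0292% as lower. Nlgn2 stood at 26.5, 53.6 and 154 CPM in D1_CC and at 12.1, 33.5 and 51.1 CPM in D1_CS. Of the 10 D1_CC libraries, 6 lay above all D1_CS libraries, and the change was 1.48 ± 0.42 (adjusted p = 0.0248 by edgeR). Nlgn3 stood at 28.5, 57.7 and 176 CPM in D1_CC and at 14.2, 36.4 and 57.1 CPM in D1_CS. Here 5 D1_CC libraries lay above all D1_CS libraries, and the change was 1.49 ± 0.44 (adjusted p = 0.0294 by edgeR). Lrrtm2 stood at 5.07, 10.4 and 32.3 CPM in D1_CC and at 2.65, 5.42 and 8.70 CPM in D1_CS. For Lrrtm2 6 D1_CC libraries lay above all D1_CS libraries, and the change was 1.82 ± 0.48 (adjusted p = 0.0180 by edgeR).

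The 6 other genes had changes from -0.38 to 1.01 in D1_CC against D1_CS, with Nrxn3 lowest and Lrrtm1 highest. The 3 calls rested on few libraries. D1_CC replicates 1, 3 and 7 held the highest Nlgn2 levels, 117, 154 and 105 CPM, and had the lowest background shares of their group, 16.4%, 4.02% and 30.3%. Without D1_CC replicate 1 or 3 none of the 9 passed; without replicate 3 the changes were 1.05 for Nlgn2, 1.05 for Nlgn3 and 1.37 for Lrrtm2. Nlgn2 and Nlgn3 also did not pass without D1_CS replicate 1, 2 or 7, nor Nlgn3 without D1_CS replicate 4, at 1.34 to 1.47. None passed with RLE scaling either, beside 672 of all 37721 genes higher and 2 lower. With total counts, with the background share as a covariate or without the failing libraries, none of the 9 and none of all genes passed. Without the D1 libraries that held more Drd2 than Drd1, none of the 9 and none of all genes passed, and the changes were 1.49 for Nlgn2 and 2.15 for Lrrtm2. Markers of D1 neurons moved in the same comparison, 4 of 6 higher, with a summed level of 152, 499 and 1775 CPM in D1_CC against 182, 323 and 416 CPM in D1_CS. Markers of D2 neurons, 2 of 5 higher, summed to 191, 1044 and 2286 CPM in D1_CC against 130, 243 and 995 CPM in D1_CS. Medium spiny neuron markers, 2 of 6 higher, summed to 1367, 2388 and 3875 CPM in D1_CC against 1140, 1643 and 4564 CPM in D1_CS. Oligodendrocyte markers, 2 of 6 higher, summed to 170, 192 and 407 CPM against 99.6, 177 and 199 CPM. Of 6 markers each, 1 of oligodendrocyte precursors and 1 of interneurons were higher. None of astrocytes, microglia, endothelial cells or cortical glutamatergic neurons passed. The part of these lists in the 3 calls was not tested.

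Between mice that both received a cocaine challenge, the cocaine history was compared directly as D1_CC against D1_SC. In D1_CC 4 of the 9 genes were lower and none was higher, and all 4 are long genes: Nrxn3, Nlgn1, Lrrtm3 and Lrrtm4. Over all genes 10.5% passed, 7.86% as lower and 2.62% as higher, and the median change of all genes was 0.19. Nrxn3 stood at 2040, 2622 and 2934 CPM in D1_CC, against 2385, 6059 and 9671 CPM in D1_SC. The change of Nrxn3 was -1.89 ± 0.35 (adjusted p = 0.00205 by edgeR). Nlgn1 stood at 1113, 1292 and 1648 CPM in D1_CC, against 1236, 2354 and 3904 CPM in D1_SC, a change of -1.46 ± 0.31 (adjusted p = 0.0034 by edgeR). Lrrtm3 stood at 142, 162 and 216 CPM in D1_CC, against 149, 280 and 472 CPM in D1_SC, a change of -1.35 ± 0.32 (adjusted p = 0.00652 by edgeR). Lrrtm4 stood at 552, 828 and 921 CPM in D1_CC, against 650, 1530 and 2274 CPM in D1_SC, a change of -1.57 ± 0.29 (adjusted p = 0.00205 by edgeR). For all 4 genes, none of the 10 D1_CC libraries reached the D1_SC median, and the groups overlapped at the low end of D1_SC.

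Nrxn3, Nlgn1 and Lrrtm4 passed in all 37 fits that left out 1 library, whereas Lrrtm3 did not without D1_SC replicate 2, 4 or 9, at -0.93, -0.97 and -1.02. With total counts the 4 genes still passed, at -1.31 for Nrxn3, -0.92 for Nlgn1, -0.84 for Lrrtm3 and -0.99 for Lrrtm4, beside a median of all genes of 0.52 and 2.73% of all genes lower. With limma and library weights 7 of the 9 were lower, beside 18.5% of all genes. Without the D1 libraries that held more Drd2 than Drd1, none of the 9 and none of all genes passed. The 4 genes then stood at -1.48, -1.35, -1.20 and -1.34 in the same order. D1_SC held only replicates 2, 7 and 8 in that fit. The other 5 genes had changes from -0.74 to 1.15. Markers of cortical glutamatergic neurons moved too, with 3 of 5 lower and a summed level of 9.05, 105 and 128 CPM in D1_CC against 19.3, 107 and 263 CPM in D1_SC. Oligodendrocyte markers, 2 of 6 lower, summed to 170, 192 and 407 CPM in D1_CC against 99.4, 299 and 921 CPM in D1_SC. D2 neuron markers, 2 of 5 higher, summed to 191, 1044 and 2286 CPM in D1_CC against 115, 281 and 524 CPM in D1_SC. Interneuron markers, 2 higher and 1 lower of 6, summed to 173, 199 and 227 CPM in D1_CC against 56.1, 150 and 513 CPM in D1_SC. Of 6 markers each, 1 of medium spiny neurons was higher and 1 lower, 1 of astrocytes and 1 of microglia were lower, and none of D1 neurons or oligodendrocyte precursors passed, nor did any of 5 endothelial markers. The part of these lists in the 4 calls was not tested. The D1_SC libraries enter both this comparison and D1_SC against D1_SS, so the rise of these 4 genes there and the fall here are not separate evidence.

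**Figure D5:**
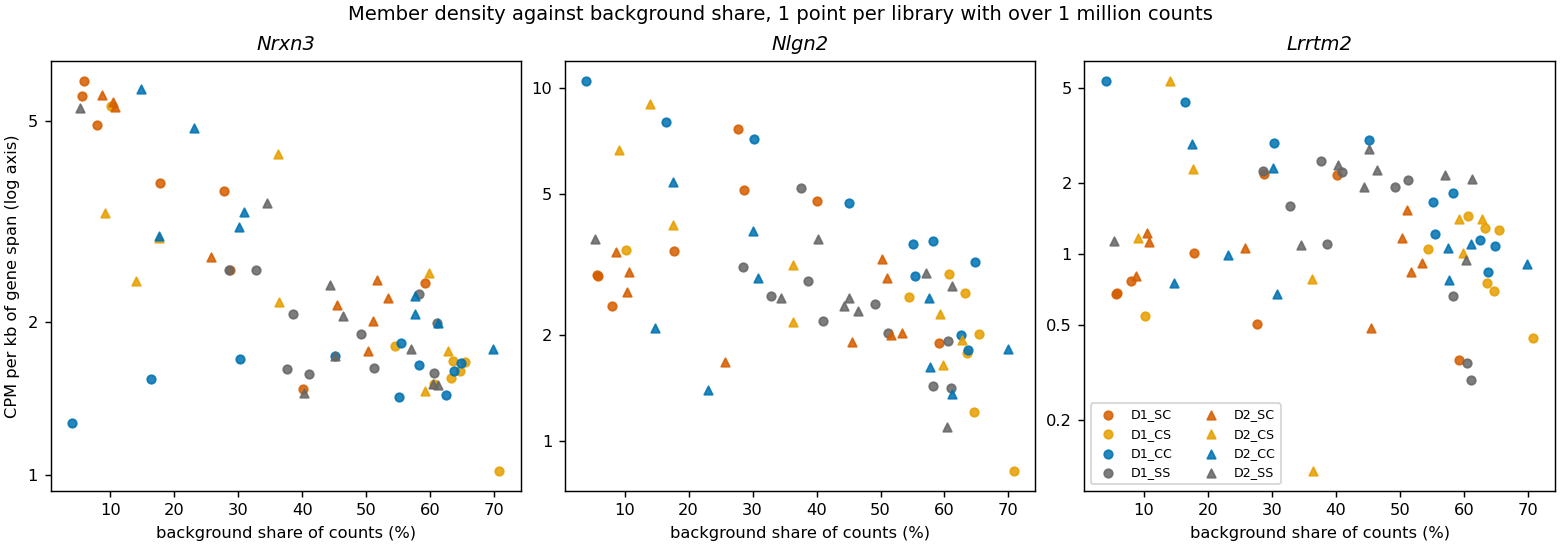
CPM per kilobase of Nrxn3, Nlgn2 and Lrrtm2 against the background share of each library (percent), 1 point per library with over 1000000 counts. Nrxn3 is highest where the background share is low (r = -0.743), as is Nlgn2 (r = -0.577), while Lrrtm2 shows little relation (r = -0.196).

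The remaining D1 comparisons gave no call among the 9 genes, and none among all genes (0% called). In D1_CS against D1_SS, which asks what 30 days of withdrawal leave behind, the gene with the smallest p was Lrrtm2 at -0.78 ± 0.46 (adjusted p = 1 by edgeR), and no unadjusted p was under 0.05; limma with library weights called 6 of the 9 as lower there, from -0.65 for Lrrtm2 to -0.39 for Lrrtm4, where that fit called 24.5% of all genes lower. In D1_CC against D1_SS it was Nlgn2 at 1.31 ± 0.39 (adjusted p = 0.695 by edgeR), and 3 of the 9 had an unadjusted p under 0.05. The interaction, (D1_CC minus D1_CS) minus (D1_SC minus D1_SS), tests whether the challenge response depends on the history. It was -2.11 ± 0.49 for Nrxn3 (adjusted p = 0.0527 by edgeR), and 5 of the 9 had an unadjusted p under 0.05. Over fits that left out 1 library it ranged from -2.24 to -1.03 for Nrxn3. It was -1.03 without D1_CS replicate 3 and did not pass. It passed in 10 of the 37 fits, those without D1_CC replicate 5, 6, 8 or 9, D1_SC replicate 6, 7 or 8, or D1_SS replicate 8, 9 or 10. With RLE scaling, the interaction passed for Nrxn3 at -1.95 and Lrrtm4 at -1.45, beside 1.99% of all genes lower. With DESeq2 it passed for 5 of the 9, beside 7.75% of all genes in either direction.

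The relation of the changes to gene length took either sign, as a description over 9 genes that carries no test. The Spearman rank correlation of gene span with the log2 change was 0.55 in D1_SC minus D1_SS, 0.67 in D1_CS minus D1_SS and -0.87 in D1_CC minus D1_SS. It was -0.93 in D1_CC minus D1_CS, -0.90 in D1_CC minus D1_SC and -0.93 in the D1 interaction. In the D2 line it was 0.85 in D2_SC minus D2_SS, -0.58 in D2_CS minus D2_SS and 0.85 in D2_CC minus D2_SS. It was 0.80 in D2_CC minus D2_CS, the opposite sign to the D1 line, -0.43 in D2_CC minus D2_SC and 0.22 in the D2 interaction. Between lines it was -0.15 for D1_SS minus D2_SS, and 0.05, 0.88 and -0.90 for the differences in the changes of SC, CS and CC against SS. These comparisons share groups and are not separate evidence. Over the 71 libraries, Pearson's r of log2(CPM + 1) was 0.945 between Nrxn3 and Lrrtm4, 0.866 between Nrxn3 and Nlgn1, and 0.897 between Nlgn1 and Lrrtm3. Among the short genes it was 0.877 between Nlgn2 and Nlgn3 and 0.851 between Nlgn3 and Lrrtm1, but 0.0959 between Nrxn3 and Nlgn2. Lrrtm2 had r of 0.583 with Nlgn2, 0.578 with Nlgn3 and 0.578 with Lrrtm1, and of -0.386 with Lrrtm4 and -0.280 with Nrxn3. These points share depth and background share, and background share itself had r from -0.785 (Lrrtm3) to -0.196 (Lrrtm2) with the 9 genes.

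Across the same 71 libraries and 17071 genes, the genes most like Nrxn3 were Dlg2, a postsynaptic scaffold gene (r = 0.988), and Grm7, a presynaptic glutamate receptor gene (r = 0.986). Those most like Lrrtm4 were Lsamp (r = 0.974), a cell adhesion gene, and Dlg2 (r = 0.956), and those most like Nlgn1 were Fgf14 (r = 0.938) and Il1rapl1 (r = 0.932). Lrrtm3 was most like Hivep2 (r = 0.940) and Celf2 (r = 0.920). Nlgn2 was most like Lrrc4b (r = 0.901), a synaptic adhesion gene, and Cds2 (r = 0.891), and Nlgn3 most like Cx3cl1 (r = 0.940) and Spock2 (r = 0.929). Lrrtm1 was most like L1cam (r = 0.903) and Kidins220 (r = 0.881), Lrrtm2 most like Serinc1 (r = 0.946) and Bag5 (r = 0.945), and Nrxn2 most like Cacna2d2 (r = 0.828) and Ncs1 (r = 0.825).

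In the D2 line none of the 9 genes passed in any of the 6 comparisons, for each of which at most 0.252% of all 36090 genes passed. The shares of all genes called were 0% for D2_SC against D2_SS, 0.0859% for D2_CS against D2_SS, 0% for D2_CC against D2_SS, 0.252% for D2_CC against D2_CS, and 0% for D2_CC against D2_SC and for the interaction. Nrxn3 stood at 2827, 3909 and 9063 CPM in D2_SC and at 2338, 2860 and 8555 CPM in D2_SS. In Nrxn3 3 of 9 D2_SC libraries lay above all D2_SS libraries, and the change was 0.74 ± 0.40 (adjusted p = 0.973 by edgeR), 0.49 without D2_SC replicate 3 and 1.23 without D2_SS replicate 9. Of the 9 genes 8 had a positive change in this comparison, and no unadjusted p was under 0.05. In D2_CS against D2_SS the smallest p was that of Nlgn2, at 0.77 ± 0.36 (adjusted p = 0.923 by edgeR) and 0.43 without D2_CS replicate 1. In D2_CC against D2_SS it was that of Lrrtm2, at -0.49 ± 0.38 (adjusted p = 1 by edgeR) and -0.76 without D2_CC replicate 3. An unadjusted p under 0.05 was found for 1 of the 9 genes in D2_CS against D2_SS and for 0 in D2_CC against D2_SS and in D2_CC against D2_SC. DESeq2 also called 0 of the 9 in every D2 comparison. Of all 36090 genes, it called 2 higher in D2_CS against D2_SS, 33 lower in D2_CC against D2_CS and none in the other D2 comparisons. By contrast, limma with library weights called 1 in D2_SC, 1 in D2_CS and 3 in D2_CC against D2_SS, all as lower and Lrrtm2 in each case. That fit called 8.49%, 9.24% and 14.2% of all genes lower in these comparisons.

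In D2_CC against D2_CS 8 of the 9 genes had a negative change, and 3 had an unadjusted p under 0.05. Lrrtm1 had the smallest p. It stood at 0, 10.6 and 18.7 CPM in D2_CC and at 8.78, 20.6 and 50.1 CPM in D2_CS. The 0 was that of D2_CC replicate 10, with 19825 counts, and the D2_CS values include replicates 6 and 9, with 26297 and 19980 counts. None of the 10 D2_CC libraries reached the D2_CS median, and the change was -0.81 ± 0.33 (adjusted p = 0.45 by edgeR) and -0.53 without D2_CS replicate 3. Among libraries that met the quality rule, 8 D2_CC and 5 D2_CS, the Lrrtm1 medians were 10.6 CPM in D2_CC and 12.3 CPM in D2_CS. In D2_CC against D2_SC the smallest p was that of Nrxn2, at -0.46 ± 0.27 (adjusted p = 0.988 by edgeR) and -0.30 without D2_SC replicate 3, and in the D2 interaction that of Lrrtm1, at -1.04 ± 0.47 (adjusted p = 0.78 by edgeR), with 2 of 9 at an unadjusted p under 0.05.

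Set directly against each other over 39250 genes, the lines did not differ in any of the 9 genes at the adjusted threshold. In D1_SS against D2_SS, where 0.0255% of all genes passed (0.0127% in each direction), all 9 changes were negative, from -0.54 to -0.03, and the smallest p was that of Lrrtm4, at -0.54 ± 0.36 (adjusted p = 1 by edgeR), with 0 of 9 at an unadjusted p under 0.05. The difference between the D1 and the D2 change of SC against SS was above 0 for all 9 genes, from 0.44 to 1.17. It was largest for Lrrtm1, at 1.17 ± 0.56 (adjusted p = 0.937 by edgeR), where 0.028% of all genes passed. In the fit of the D1 line alone, the Lrrtm1 change of D1_SC against D1_SS was 1.41, and 0.51 without D1_SC replicate 5. For the change of CS against SS, where 0.0892% of all genes passed, Lrrtm1 had the smallest p, at -1.09 ± 0.57 (adjusted p = 0.877 by edgeR). For the change of CC against SS, where 0% passed, Nlgn3 had the smallest p, at 1.53 ± 0.62 (adjusted p = 0.82 by edgeR), and 3 of 9 had an unadjusted p under 0.05. The calls in D1 nuclei and their lack in D2 nuclei are therefore not shown to differ.

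Around the 9 genes, 64 other trans-synaptic adhesion genes were tested. In D1_SC against D1_SS 22 of them were higher and none lower, where 9.7% of all genes were higher, with a median change of 0.61. The 4 with the smallest p were the teneurins Tenm4 (1.40, adjusted p = 0.00373 by edgeR) and Tenm2 (1.05, adjusted p = 0.00403), which bind latrophilins across the cleft, the contactin-associated Cntnap5a (0.98, adjusted p = 0.00398) and the netrin-G ligand gene Lrrc4c (1.28, adjusted p = 0.00398). In D1_CC against D1_CS 10 were higher and none lower, beside 8.28% of all genes higher, with a median of -0.01, led by Lrfn4 (1.97), Cadm4 (1.38), Cadm3 (1.49) and the calsyntenin Clstn1 (1.57). In D1_CC against D1_SC 21 were lower, beside 7.86% of all genes, led by Cntnap2 (-1.46), Tenm2 (-1.20), Lrfn5 (-1.62) and Lrrc4c (-1.39), and 1 was higher, Slitrk6 (0.76); the median was -0.32. In D2 nuclei Slitrk6 was the only one that passed in D2_CC against D2_CS, at -2.68 (adjusted p = 0.0407 by edgeR).

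Of 16 genes for cytoplasmic partners, the scaffolds that hold neurexins and neuroligins in place, 7 were higher and none lower in D1_SC against D1_SS, beside 9.7% of all genes higher, with a median of 0.81. In D1_CC against D1_CS 3 were higher, beside 8.28% of all genes, namely Lin7c, Lin7b and Dlg4, with a median of 0.42, and Dlg4 encodes the PSD-95 scaffold that binds neuroligins. In D1_CC against D1_SC 7 were lower and none higher, beside 7.86% of all genes lower, with a median of -0.54. Of the 3 alpha-catenin genes, Ctnna2 was higher in D1_SC than in D1_SS by 0.90 (adjusted p = 0.00739 by edgeR) and had a change of -1.05 in D1_CC against D1_SC (adjusted p = 0.00272 by edgeR). Ctnna1 and Ctnna3, which hold Lrrtm2 and Lrrtm3, did not pass in either comparison.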

How the data were processed

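Raw counts per gene, deposited by the authors as whole numbers for 55401 gene identifiers in 75 libraries, were the only values tested; the FPKM values deposited by the authors served to read gene lengths, which equalled the full GENCODE M21 gene span in 54271 of 54271 genes compared. Per the submitters' processing notes, featureCounts and DESeq2 were used on mm10; versions, aligner and strand setting are not given in the sources used here. Libraries were low-input stranded total RNA from sorted nuclei, per the labels' protocols.

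Tests were edgeR's quasi-likelihood tests (edgeR 4.0.16, R 4.3.3) after TMM scaling and a filterByExpr filter by group, with Benjamini-Hochberg adjustment over every gene tested. The D1 fit held 37 libraries and 37721 genes, the D2 fit 38 libraries and 36090 genes, and comparisons of lines used 75 libraries and 39250 genes. All tests were two-sided. The SE is the change divided by the square root of its test statistic. CPM use the library total, without scaling factors. The share of counts at the density of 1135 olfactory and 329 vomeronasal receptor genes gave the background share. A library failed if its total lay below the median of its line divided by 3, with genes at 10 or more counts or a correlation over 4 scaled deviations below its line's median, or with a Drd1 to Drd2 ratio on the other line's side. DESeq2 1.42.0 and limma 3.58.1 were alternatives, and the fits were tested on simulated data. The alternatives of host subtraction, of leaving out D1 libraries with more Drd2 than Drd1 and of total counts were chosen after seeing the data, the last after seeing the scaling factors.

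For each comparison, values are given for the genes that passed or, where none passed, for the gene with the smallest p; of the other adhesion genes up to 4 with the smallest p are named. The 9 genes and all lists were chosen with earlier results of these data known. Count totals limit precision most in the 4 libraries under 1000000 counts. Levels over background and correlations leave these out, while CPM ranges by group and the main fits keep them.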

Additional observations from a re-analysis of the deposited data

Results flagged for a closer look

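Within each of the 8 groups, the highest and the lowest library of each of the 9 genes were compared with their nearest neighbour by Dixon's test, and 11 of 72 groups held a library far from the others; chance alone gives about 1 in 20.

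D1_CS replicate 3 was highest in its group for 5 genes. It held 8601 CPM of Nrxn3 beside 2900 in the next library, 2722 CPM of Nlgn1 beside 1589, 17.4 CPM of Lrrtm1 beside 12.3, 306.0 CPM of Lrrtm3 beside 156 and 1977 CPM of Lrrtm4 beside 1038. Its background share was 10.2%, against a group median of 63.4%, and it met the quality rule.

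D1_SC replicate 5, with 651445 counts, held 107 CPM of Lrrtm1 beside 19.3 in the next library, and D1_SC replicate 1, with 2953172 counts, held 338 CPM of Nrxn2 beside 216. D1_SS replicate 5 held 76.5 CPM of Nlgn2 beside 45.5 and 85.7 CPM of Nlgn3 beside 48.8. In the D2 line, D2_CS replicate 1 held 32.4 CPM of Lrrtm2 beside 13.8, and D2_CC replicate 10, with 19825 counts, held 0 CPM of Lrrtm1 beside 9.31.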

How the results depend on the processing

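Counts are of the 9 genes that passed. In D1_SC against D1_SS, 7 passed. With limma and library weights 4 did, beside 1683 of all 37721 genes higher and 1053 lower. Without failing libraries 4 passed, beside 7.11% of all genes higher. With background subtracted 1 passed, beside 294 of 28218 genes higher and 38 lower. With total counts 1 passed, beside 0.496% of all genes higher. With the background share as covariate 0 passed, beside 2 of 37721 genes higher and 0 lower. Without D1 libraries holding more Drd2 than Drd1, 0 passed, as did 0 of all 39325 genes. In D1_CC against D1_CS, 3 passed. With RLE scaling 0 did, beside 672 of 37721 genes higher and 2 lower. With total counts, background subtracted, the background covariate, without failing libraries, or without those D1 libraries, 0 passed, as did 0 of all genes. In D1_CC against D1_SC, 4 passed, and 7 with limma, beside 18.5% of all genes lower. Without those D1 libraries 0 passed, as did 0 of all genes. In the D1 interaction 0 passed, but 2 with RLE scaling, beside 1.99% of all genes lower, and 5 with DESeq2, beside 7.75% in either direction. With the background covariate 2 passed, beside 2181 of 37721 genes higher and 501 lower. With total counts 1 passed, beside 593 genes higher and 99 lower. Where 0 passed, limma gave 6 in D1_CS against D1_SS, 1 in D2_SC against D2_SS, 1 in D2_CS against D2_SS and 3 in D2_CC against D2_SS, all lower, where it called 24.5%, 8.49%, 9.24% and 14.2% of all genes lower. Under limma Nlgn2 reversed in D2_CS against D2_SS (-0.40), as did Lrrtm1 in the D2 interaction (0.094). The cause was not tested.

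Leaving out 1 library gave 1 to 8 genes in D1_SC against D1_SS: 1 without D1_SC replicate 2 or 4, 2 without replicate 9, 3 without D1_SC replicate 5, D1_CS replicate 5 or D1_SS replicate 3, and 8 without D1_SC replicate 6. It gave 0 to 5 in D1_CC against D1_CS (0 without D1_CC replicate 1 or 3, 1 without D1_CS replicate 1, 2 or 7, 5 without D1_CS replicate 3), 3 to 6 in D1_CC against D1_SC (6 without D1_CC replicate 3) and 0 to 3 in the D1 interaction. All other D1 and D2 comparisons stayed at 0.

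With a replicate block, 5 genes passed in D1_SC against D1_SS, 3 in D1_CC against D1_CS, 4 in D1_CC against D1_SC and 0 in the interaction. Of all 37721 genes, that fit called 1711 higher and 169 lower in D1_SC against D1_SS. It called 2780 higher and 7 lower in D1_CC against D1_CS, and 129 higher and 1340 lower in D1_CC against D1_SC. The numbers did not pair libraries: the median r of deviations of same-numbered libraries was -0.034 in D1 and -0.004 in D2, and 6 of 37 D1 and 1 of 38 D2 libraries correlated best with their own number.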
